A study of Mus musculus with 27 samples.

Results

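The thyroid hormone receptors, their retinoid X receptor partners and 3 of their coregulators were followed in dorsal skin of C3H mice given TDM10842, which the submitters describe as a thyroid hormone receptor agonist. The genes were the 7 rows named Thra, Thrb, Rxra, Rxrb, Ncor1, Ncoa1 and Med1 among 54532 genes of the deposited count table, taken by name. All 7 passed the filter on low counts. The study comprised 27 RNA sequencing libraries in 3 groups of 9. TDM skin received TDM10842 in its solvent and Vehicle skin received that solvent alone, each in 2 topical applications of 60 µL at 0 and 24 h. Blank skin received no treatment. Sex, age and the time of sampling were not given in the sources used here.

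Thra and Thrb encode the nuclear receptors for thyroid hormone, which bind DNA mostly as heterodimers with a retinoid X receptor, encoded among others by Rxra and Rxrb. Without ligand the receptors recruit corepressors such as the product of Ncor1, which holds histone deacetylase HDAC3. With ligand they exchange these for p160 coactivators such as that of Ncoa1 and for the Mediator complex, which they contact through the product of Med1. In skin, thyroid hormone is known for effects on the hair follicle and on epidermal keratinocytes. The DNA element that the heterodimers prefer is a repeat of a 6-base motif with a short spacer.

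RefSeq promoter windows on GRCm38.p6, of 250 bases before to 50 after a start site, were found for 6 of the 7 genes, 10 windows in all, and Thra was not matched. The motif AGGTCA was searched on both strands, as was the spaced pair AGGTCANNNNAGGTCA, whose matches also contain the single motif. The single motif occurred in 2 of the 10 windows, against 5340 of 32851 windows of the same length (16.3%). The spaced pair was in none of the 10, and in 5 of the 32851 (0.0152%). The upstream parts of the 2 windows with a match are shown because these letters form the unit of the element that the receptors bind, with the motif or its reverse complement in capitals. The Thrb stretch lies at chr14:17660710-17660959 on the plus strand, with its match 184 bases before the start site, and the Rxra stretch at chr2:27709042-27709291 on the plus strand, with matches 87 bases (minus strand) and 48 bases (plus strand) before that window's start site.
Thrb: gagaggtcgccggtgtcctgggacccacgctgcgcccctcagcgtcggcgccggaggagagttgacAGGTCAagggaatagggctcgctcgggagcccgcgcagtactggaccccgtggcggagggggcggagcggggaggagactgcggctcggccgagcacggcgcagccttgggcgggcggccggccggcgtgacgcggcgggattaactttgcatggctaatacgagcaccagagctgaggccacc
Rxra: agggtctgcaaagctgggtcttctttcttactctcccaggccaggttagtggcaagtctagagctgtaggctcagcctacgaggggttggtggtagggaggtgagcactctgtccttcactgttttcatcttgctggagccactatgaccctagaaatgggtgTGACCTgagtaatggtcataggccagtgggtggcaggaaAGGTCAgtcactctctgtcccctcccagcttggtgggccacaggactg
The first Thrb window had a GC content of 72.7% and this Rxra window 54.3%, against a median of 52.7% over all windows. Counts per gene do not separate start sites, so no level belongs to these windows alone.

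Count totals ran from 15996657 to 17357395 reads in TDM, 15412332 to 17001952 in Vehicle and 15705220 to 17599066 in Blank libraries. Nothing in the labels ties each library to its own animal. The p-values therefore rest on library-to-library spread, which may in part be technical. The protocol text names retina where the tissue label names dorsal skin, and 8 retina markers summed to at most 4.40 CPM (reads scaled to a common library size) in any library, against at least 4127 CPM for 7 basal keratinocyte markers. Summed markers of dividing cells were 449 to 964 CPM in TDM and 230 to 828 CPM in Vehicle libraries, in which Vehicle replicates 7 and 8 stood at 611 and 828 CPM and the other 7 at no more than 400.1 CPM. Summed skeletal muscle markers were 16510 to 42050 CPM in TDM and 23310 to 74020 CPM in Vehicle libraries. Of the 10 markers, 9 were lower in TDM at an adjusted p under 0.05 (edgeR's quasi-likelihood test), beside 11.7% of all genes tested. Blank replicate 5 stood apart in long transcripts, as described beside Ncoa1. In bulk tissue, fewer cells of a type and less RNA per cell cannot be told apart.

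The 7 genes had nearly the same order of level per gene length in each group. On the authors' FPKM scale, which divides counts by gene length and depth, Rxra was the highest at 58.4 ± 2.82 FPKM in TDM, 59.0 ± 5.95 FPKM in Vehicle and 57.1 ± 4.22 FPKM in Blank skin (SD, n = 9 each). Thra followed at 19.6 ± 1.07 FPKM in TDM, 20.4 ± 1.42 FPKM in Vehicle and 21.5 ± 4.18 FPKM in Blank skin. Rxrb stood beside it at 19.2 ± 1.18 FPKM in TDM, 20.3 ± 1.63 FPKM in Vehicle and 20.4 ± 2.04 FPKM in Blank skin. Thra was the higher of these neighbours in 15 of 27 libraries, so their order was not fixed. Ncor1 lay next at 13.9 ± 1.22 FPKM over all 27 libraries, then Med1 at 7.19 ± 0.566 FPKM, Ncoa1 at 6.83 ± 1.11 FPKM and Thrb at 4.78 ± 0.811 FPKM. The ranges of Rxra and Thra, of Rxrb and Ncor1, and of Ncor1 and Med1 did not overlap over the 27 libraries. Ncoa1 exceeded Thrb in 26 of 27 libraries.

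Med1 and Ncoa1 changed places between groups. Med1 was the higher of them on the FPKM scale in 6 of 9 TDM, 9 of 9 Vehicle and 2 of 9 Blank libraries. The order of the 7 genes over all libraries was the same with means of FPKM, medians of FPKM, means of log2(FPKM + 1) and TMM-scaled counts per kilobase.

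**Figure D1:**
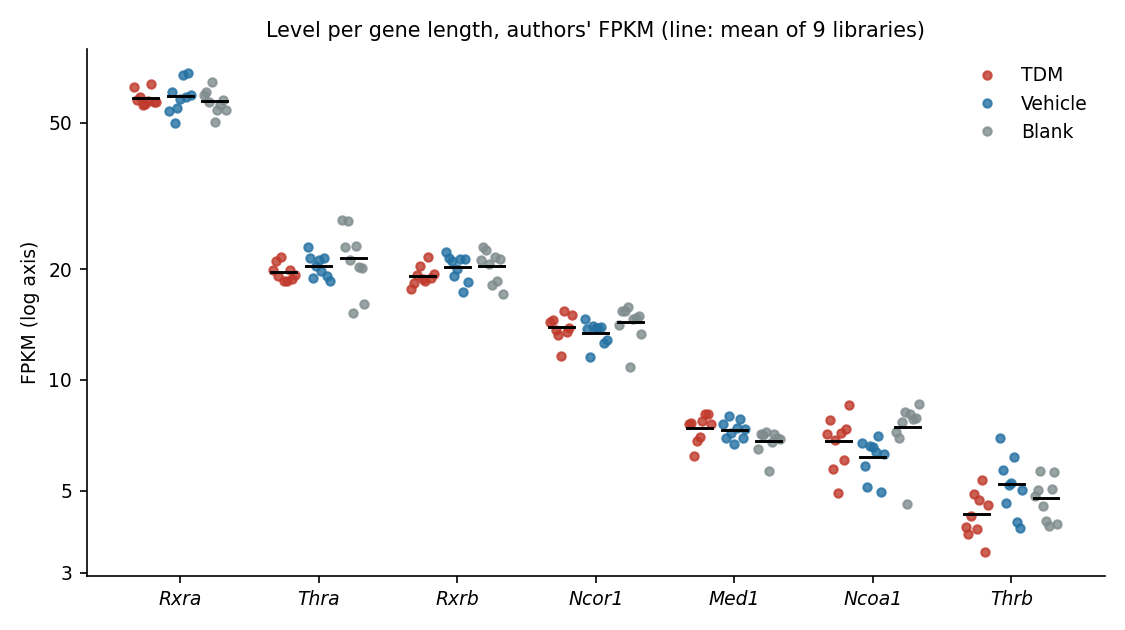
Level of each gene per gene length in every library, as the authors' FPKM on a log axis, with genes ordered by their mean over 27 libraries and groups side by side in the order TDM, Vehicle, Blank. Points are libraries and lines are means of 9, and Rxra at 49.9 to 68.1 FPKM stands above all other points, while Thra and Rxrb overlap near 20 FPKM.

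Thra, the receptor that predominates in many tissues including skin, made up most of the receptor signal per length. It supplied 81.9% ± 2.03 of the summed FPKM of Thra and Thrb in TDM, 79.7% ± 2.51 in Vehicle and 81.5% ± 2.55 in Blank libraries (SD, n = 9 each). The gene total does not separate the hormone-binding product of Thra from its splice variant that does not bind hormone, nor the amino-terminal variants of Thrb. Among retinoid X receptors, Rxra supplied 75.2% ± 1.27 of the summed FPKM of Rxra and Rxrb in TDM, 74.3% ± 2.40 in Vehicle and 73.6% ± 1.69 in Blank libraries.

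None of the 7 genes passed an adjusted p under 0.05 in edgeR's quasi-likelihood test in any comparison. Over all 17232 genes tested, 23.7% were called in TDM versus Vehicle, 2.76% in Vehicle versus Blank and 16.2% in TDM versus Blank. At an unadjusted p under 0.05, 1 of the 7 genes was below the threshold in each comparison, against 37.3%, 25.9% and 29.7% of all genes tested. These were Thrb in TDM versus Vehicle, Ncoa1 in Vehicle versus Blank and Med1 in TDM versus Blank. DESeq2 on the same counts called 1 of 7 in TDM versus Vehicle (Thrb), and 0 of 7 in the other comparisons. Over all genes it called 4743 of 17232 in TDM versus Vehicle. It called 1433 of 16563 in Vehicle versus Blank and 3232 of 17232 in TDM versus Blank. As with edgeR, the authors' deposited table gave none of the 7 an adjusted p under 0.05. That table called 13.4%, 4.57% and 12.2% of its genes in TDM versus Vehicle, Vehicle versus Blank and TDM versus Blank.

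The log2 fold changes were small. They ran from -0.26 to 0.16 in TDM versus Vehicle, from -0.27 to 0.13 in Vehicle versus Blank and from -0.13 to 0.13 in TDM versus Blank. In absolute size the median change of the 7 genes on the log2 scale was 0.06, 0.09 and 0.11 in these comparisons in that order, beside 0.21, 0.18 and 0.19 over all genes tested. Of the 21 intervals, the widest limits were -0.47 and 0.36 on the log2 scale, so none reached a 2-fold change. Comparisons with a shared group are not independent of each other.

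**Figure D2:**
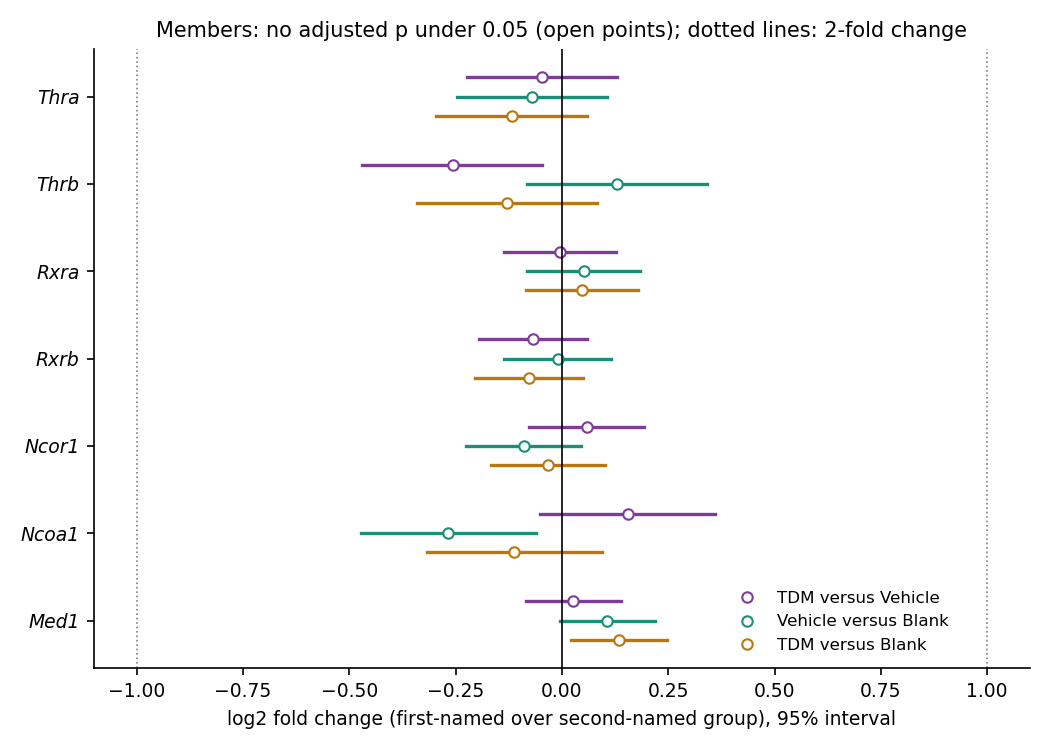
Log2 fold change and 95% interval of each gene in the 3 comparisons, from edgeR's fit over 27 libraries. Open points mark an adjusted p of 0.05 or more, dotted lines mark a 2-fold change, and all 21 intervals lie between -0.47 and 0.36.

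Thra (ENSMUSG00000058756, chr11:98740638-98769006, plus strand, GRCm38) had a lowest, median and highest level of 87.1, 90.2 and 101 CPM in TDM libraries, after the TMM scaling used for all CPM values of the 7 genes. The same values were 86.1, 95.5 and 106 CPM in Vehicle and 71.5, 98.1 and 127 CPM in Blank libraries. The TDM range lay inside the Vehicle range, and both lay inside the wider Blank range. Thra averaged 91.9 ± 4.99 CPM in TDM and 95.03 ± 6.53 CPM in Vehicle skin (SD, n = 9 each). The log2 fold change was -0.05 (95% interval -0.23 to 0.13; edgeR's quasi-likelihood test, adjusted p = 0.72). Against Blank skin, at 99.8 ± 19.8 CPM, it was -0.12 in TDM (-0.30 to 0.06; adjusted p = 0.379) and -0.07 in Vehicle skin (-0.25 to 0.11; adjusted p = 0.619).

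Thra shares 263 exon bases with Nr1d1, a circadian repressor encoded on the opposite strand, at chr11:98768157-98768419. This is 5.70% of the exon bases of Thra and 8.55% of those of Nr1d1. Whether the counting used strand was not given in the sources used here, so reads from the shared stretch cannot be assigned to either gene. Nr1d1 had 138.5 to 186 CPM in TDM, 112 to 289.8 CPM in Vehicle and 92.2 to 214 CPM in Blank libraries. Within Vehicle the libraries numbered 7, 8 and 9 held 112, 116.5 and 129.6 CPM, and the other 6 at least 192 CPM. Within Blank the same numbers held 121, 120.4 and 92.2 CPM and the other 6 at least 157 CPM, while TDM libraries showed no such gap. Centred on group means, log2 CPM of Thra and Nr1d1 had a Pearson correlation of 0.48 over 27 libraries, which share depth and may share reads of that stretch.

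Thrb (ENSMUSG00000021779, chr14:17660261-18038090, plus strand) encodes the other receptor, and of the 7 genes it had the lowest unadjusted p in TDM versus Vehicle. Its lowest, median and highest levels were 25.6, 32.4 and 40.7 CPM in TDM, 30.2, 39.0 and 51.8 CPM in Vehicle and 29.4, 36.2 and 42.8 CPM in Blank libraries. The groups overlapped, with 8 of 9 TDM libraries below the Vehicle median and TDM replicate 7 above it. Thrb averaged 32.6 ± 4.67 CPM in TDM and 39.0 ± 6.93 CPM in Vehicle skin (SD, n = 9 each). The log2 fold change was -0.26, with a 95% interval of -0.47 to -0.05 and an adjusted p of 0.0679 by edgeR's quasi-likelihood test. Blank skin lay between, at 35.6 ± 4.96 CPM. Against it the log2 fold change was -0.13 in TDM (-0.34 to 0.08; adjusted p = 0.43) and 0.13 in Vehicle skin (-0.08 to 0.34; adjusted p = 0.424).

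The Thrb result in TDM versus Vehicle sat near the threshold. It was called by DESeq2 (log2 fold change -0.27, adjusted p = 0.0436) and by limma voom with sample weights (-0.33, adjusted p = 0.00551). Leaving out 1 library at a time, edgeR called it in 6 of 27 fits, those without TDM replicate 7, Vehicle replicates 3, 7 or 8, or Blank replicates 3 or 5. Without Vehicle replicates 7 and 8 together, a fit added after the data were seen, it was -0.34 (edgeR, adjusted p = 0.0109). These libraries held the lowest Thrb levels of Vehicle skin, 30.9 and 30.2 CPM, so leaving them out raised the Vehicle mean. The authors' deposited table gave -0.27 with an adjusted p of 0.0834. With a skeletal muscle score as a covariate, the Thrb log2 fold change was -0.10 (edgeR, adjusted p = 0.744). Muscle markers themselves differed between TDM and Vehicle skin, so the fit cannot fully separate the score from the group. That fit called 242 of all 17232 genes in this comparison, beside 4090 without the score.

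Markers of some cell types moved with Thrb and others against it. Centred on group means over 27 libraries, Pearson correlations of the marker scores with Thrb ran from -0.41 for proliferation to 0.52 for sebocytes. The scores of differentiated keratinocytes, fibroblasts and myeloid cells had -0.29, -0.28 and -0.28. Proliferation had 0.27 in TDM, -0.75 in Vehicle and -0.47 in Blank skin. The types with the highest values, sebocytes, basal keratinocytes and skeletal muscle, are given in detail. The 7 sebocyte markers summed to 674 to 921 CPM in TDM, 807 to 1938 in Vehicle and 982 to 1843 in Blank libraries. None of them was at 0. In TDM versus Vehicle 1 was called higher and 3 were called lower, beside 12.0% and 11.7% of all genes. Vehicle replicates 3, 7 and 8 held the 3 lowest sebocyte sums of their group, 831.5, 807 and 1018 CPM, and the 3 lowest Thrb levels, 34.3, 30.9 and 30.2 CPM. Over 9 libraries of a group, Thrb and the sebocyte score had a Pearson correlation of -0.28 in TDM, 0.89 in Vehicle and 0.35 in Blank skin, and 0.52 centred on group means over 27 libraries. The 7 basal keratinocyte markers summed to 4509 to 6971 CPM in TDM, 4601 to 13530 in Vehicle and 4127 to 8401 in Blank libraries. Beside 11.7% of all genes, 6 of these markers were called lower in TDM versus Vehicle, and none was at 0. Their score had a correlation with Thrb of 0.48 in TDM, 0.34 in Vehicle and 0.68 in Blank skin, and 0.44 centred over 27 libraries. The correlation with the skeletal muscle score was 0.81 in TDM, 0.03 in Vehicle and 0.54 in Blank skin. Such correlations were not particular to Thrb. Centred over 27 libraries, Rxrb ran from -0.63 for fibroblasts to 0.55 for skeletal muscle. Ncoa1 ran from -0.48 for basal keratinocytes to 0.62 for fibroblasts. The part of sebocytes and basal keratinocytes in the Thrb values was not tested.

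The ratio of Thrb to Thra within a library, on the FPKM scale, was 0.221 ± 0.0303 in TDM, 0.255 ± 0.0393 in Vehicle and 0.228 ± 0.0382 in Blank skin (SD, n = 9 each). It ran from 0.181 to 0.269 in TDM, 0.192 to 0.311 in Vehicle and 0.173 to 0.278 in Blank libraries, and these ranges overlapped.

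**Figure D3:**
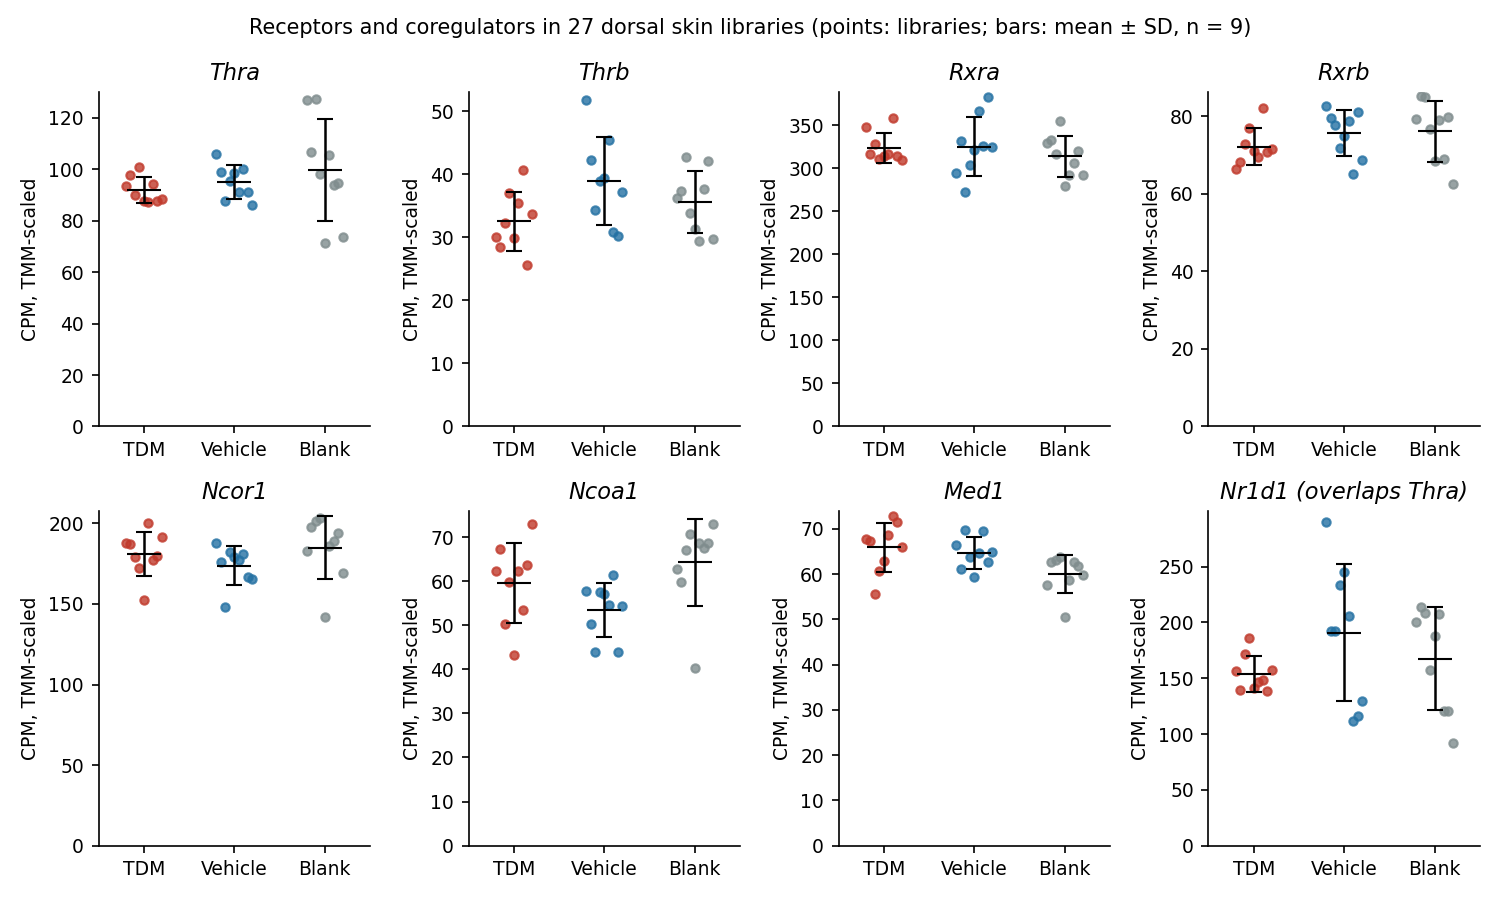
Level of the 7 genes and of Nr1d1, which overlaps Thra, in each library as TMM-scaled CPM from 0, with TDM, Vehicle and Blank from left to right. Points are libraries and bars are means ± SD of 9, with TDM Thrb at 25.6 to 40.7 CPM reaching lower than Vehicle Thrb at 30.2 to 51.8 CPM and Blank replicate 5 the lowest Ncoa1 point at 40.2 CPM.

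The retinoid X receptors did not pass the test in any comparison. Rxra (ENSMUSG00000015846, chr2:27676440-27762957, plus strand) had a lowest, median and highest level of 309.5, 316 and 358 CPM in TDM, 273, 325 and 383 CPM in Vehicle and 279.7, 317 and 355 CPM in Blank libraries. The TDM range fell within the Vehicle range. The log2 fold change of Rxra was -0.004 in TDM versus Vehicle (95% interval -0.14 to 0.13; edgeR's quasi-likelihood test, adjusted p = 0.967). It was 0.05 in Vehicle versus Blank (adjusted p = 0.629) and 0.05 in TDM versus Blank (adjusted p = 0.669).

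Rxrb (ENSMUSG00000039656, chr17:34031812-34038393, plus strand) had 66.4, 71.2 and 82.05 CPM in TDM, 65.1, 77.65 and 82.6 CPM in Vehicle and 62.5, 79.1 and 85.1 CPM in Blank libraries as lowest, median and highest level. In TDM, 8 of 9 libraries lay below the Vehicle median, but the ranges overlapped. Its log2 fold change was -0.07 in TDM versus Vehicle (95% interval -0.19 to 0.06; edgeR's quasi-likelihood test, adjusted p = 0.451), -0.01 in Vehicle versus Blank (adjusted p = 0.929) and -0.08 in TDM versus Blank (adjusted p = 0.426). The FPKM ratio of Rxra to Rxrb was 3.05 ± 0.218 in TDM, 2.93 ± 0.351 in Vehicle and 2.81 ± 0.246 in Blank skin (SD, n = 9 each).

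Ncor1 (ENSMUSG00000018501, chr11:62316426-62458541, minus strand), the corepressor scaffold, had 152, 179.9 and 200.2 CPM in TDM, 148, 177 and 188 CPM in Vehicle and 142, 189 and 203 CPM in Blank libraries as lowest, median and highest level. All 9 Vehicle libraries lay below the Blank median, and the ranges of the 3 groups overlapped. The log2 fold change of Ncor1 was 0.06 in TDM versus Vehicle (95% interval -0.08 to 0.19; edgeR's quasi-likelihood test, adjusted p = 0.552). It was -0.09 in Vehicle versus Blank (adjusted p = 0.38) and -0.03 in TDM versus Blank (adjusted p = 0.781).

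Ncoa1 (ENSMUSG00000020647, chr12:4247362-4477182, minus strand), a p160 coactivator with acetyltransferase activity, had the lowest unadjusted p of the 7 genes in Vehicle versus Blank. Its lowest, median and highest levels were 43.3, 62.4 and 72.9 CPM in TDM, 44.0, 54.55 and 61.4 CPM in Vehicle and 40.2, 67.6 and 73.0 CPM in Blank libraries. All 9 Vehicle libraries lay below the Blank median, while the lowest of all 27 libraries was Blank replicate 5. Ncoa1 averaged 53.4 ± 6.17 CPM in Vehicle and 64.3 ± 9.86 CPM in Blank skin (SD, n = 9 each), a log2 fold change of -0.27 (95% interval -0.47 to -0.06; edgeR's quasi-likelihood test, adjusted p = 0.108). Without Blank replicate 5 it was -0.33 and passed (edgeR, adjusted p = 0.0419). The log2 fold change was 0.16 in TDM versus Vehicle (-0.05 to 0.36; adjusted p = 0.267) and -0.11 in TDM versus Blank (-0.32 to 0.09; adjusted p = 0.487).

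The coregulator levels moved with the balance of long and short transcripts in a library. An index was formed as the median centred log2 CPM of the 2541 tested genes of at least 8000 bases minus that of the 3653 under 2000 bases. It averaged 0.03 ± 0.17 in TDM, -0.06 ± 0.10 in Vehicle and 0.00 ± 0.17 in Blank libraries (SD, n = 9 each), and Blank replicate 5 was the lowest at -0.44. Centred on group means over 27 libraries, its Pearson correlation was 0.94 with Ncoa1, 0.84 with Ncor1 and 0.59 with Med1, the 3 members with over 8000 bases. It was 0.38 with Thra, 0.18 with Rxra, 0.16 with Thrb and -0.06 with Rxrb. Within groups the value for Ncoa1 was 0.94 in TDM, 0.90 in Vehicle and 0.95 in Blank libraries. For Ncor1 it was 0.86, 0.76 and 0.89 in the same order. For Med1 it was 0.52 in TDM, 0.09 in Vehicle and 0.89 in Blank libraries, so the value over 27 libraries did not hold within Vehicle. The index is made of genes of the same libraries, so these values share depth and RNA preparation, and what moved the index was not tested.

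With the index as a covariate, an alternative added after the data were seen, Ncoa1 passed in both comparisons with Blank skin. Its log2 fold change was then -0.17 in Vehicle versus Blank (edgeR's quasi-likelihood test, adjusted p = 0.0351) and -0.14 in TDM versus Blank (adjusted p = 0.0219). The FPKM ratio of Ncoa1 to Ncor1 was 0.490 ± 0.0527 in TDM, 0.459 ± 0.0339 in Vehicle and 0.518 ± 0.0628 in Blank skin (SD, n = 9 each).

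Med1 (ENSMUSG00000018160, chr11:98152154-98193293, minus strand), the Mediator subunit that nuclear receptors contact, lies 547 kb from Thra. Its lowest, median and highest levels were 55.5, 67.25 and 72.8 CPM in TDM, 59.4, 64.6 and 69.8 CPM in Vehicle and 50.5, 61.8 and 63.7 CPM in Blank libraries. In TDM, 7 of 9 libraries lay above the Blank median, and the ranges overlapped. Med1 averaged 65.9 ± 5.46 CPM in TDM and 60.1 ± 4.18 CPM in Blank skin (SD, n = 9 each), a log2 fold change of 0.13 (95% interval 0.02 to 0.25; edgeR's quasi-likelihood test, adjusted p = 0.0938). It passed with limma voom (0.14, adjusted p = 0.0176) and without TDM replicate 3 (0.16, edgeR, adjusted p = 0.0342). The authors' deposited table gave 0.12 with an adjusted p of 0.203. Against Vehicle skin, at 64.7 ± 3.50 CPM, the log2 fold change in TDM was 0.03 (-0.08 to 0.14; adjusted p = 0.745).

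**Figure D4:**
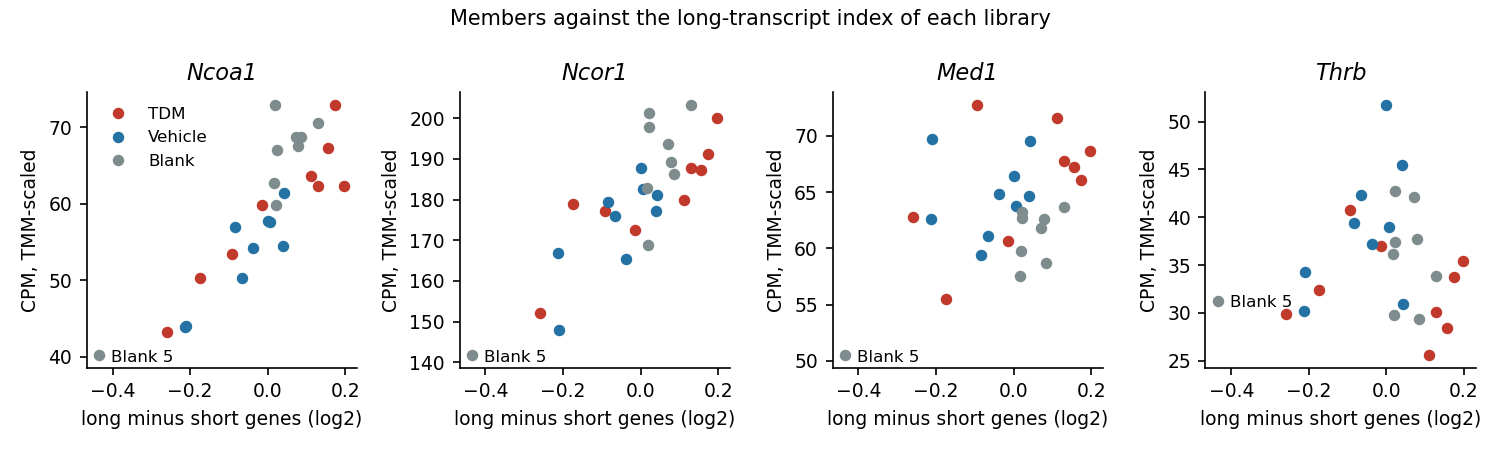
Level of Ncoa1, Ncor1, Med1 and Thrb in each library as TMM-scaled CPM against the long-transcript index, a log2 difference between long and short genes, with points coloured by TDM, Vehicle and Blank. Ncoa1 and Ncor1 climb with the index, Blank replicate 5 at -0.44 is the leftmost point of each panel, and Thrb shows no such slope.

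The spread between libraries of a group was below the median of all tested genes for each of the 7, but not against genes of like level for Ncoa1 and Thrb. Their biological coefficient of variation, edgeR's estimate of the spread beyond counting error, was 13.6% for Thra, 15.7% for Thrb, 10.8% for Rxra, 10.2% for Rxrb, 10.98% for Ncor1, 15.4% for Ncoa1 and 9.17% for Med1. The median over all genes tested was 20.2%. Among genes of like level, 4.81% varied less than Rxra and 5.60% less than Med1, against 58.9% for Ncoa1, 54.3% for Thrb and 43.7% for Thra.

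Among the 21 pairs of the 7 genes, the Pearson correlation of log2 CPM centred on group means ran from -0.14 to 0.78 over 27 libraries, with a median of 0.32 and 20 positive values. Ncor1 and Ncoa1 had the highest value, 0.78, with 0.80, 0.80 and 0.77 within TDM, Vehicle and Blank libraries in that order. It was 0.51 without the 2 libraries farthest from the median. Thrb and Rxrb had 0.56, and Thra and Thrb 0.39.

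The genes most like each receptor across the 27 libraries were found among 14587 tested genes by the same centred correlation. For Thra they were Chd2 (0.79), Spred3 (0.77) and Plec (0.75), and the most opposite were Chmp1b (-0.75), Ormdl1 (-0.74) and Rab18 (-0.73). For Thrb they were Tmem245 (0.81), Plcb4 (0.80) and Acacb (0.79), an acetyl-CoA carboxylase, and the most opposite were Nans (-0.80), Arf2 (-0.77) and Tmx1 (-0.76). Rxra was most like Med22 (0.88), a Mediator subunit, Smad5 (0.84) and Srebf2 (0.84), and Rxrb most like Safb2 (0.86), Mbd6 (0.85) and Npnt (0.82).

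The coregulators had these nearest genes. Ncor1 was most like Foxk1 (0.93), Arid1b (0.91) and Hipk2 (0.90). Ncoa1 was most like Vps13c (0.96), Usp9x (0.95) and Tut7 (0.94), of 16299, 15051 and 14732 bases against a median of 3852 bases over tested genes. Med1 was most like Ttc37 (0.73), Taf1 (0.72) and Bod1l (0.70). The genes nearest to Thra and Thrb were also longer than that median, from 6218 bases for Spred3 to 18113 for Plec. All these values share the libraries' depth and RNA preparation.

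Other receptors that share retinoid X receptors included genes that passed the test. Of 13 tested in TDM versus Vehicle, 2 rose and 3 fell, with a median log2 fold change of -0.14, against 12.0% of all genes higher and 11.7% lower and a median of 0.01. Rara, a retinoic acid receptor, had 63.7, 85.9 and 95.2 CPM in TDM and 35.5, 56.3 and 81.2 CPM in Vehicle libraries before TMM scaling as lowest, median and highest level. It rose by 0.50 on the log2 scale (edgeR's quasi-likelihood test, adjusted p = 0.0034), and Ppard, a fatty acid-sensing receptor, rose by 0.20 (adjusted p = 0.0118). Rxrg, the third retinoid X receptor, fell by 0.66 to 10.4 ± 3.90 CPM in TDM skin, against 16.4 ± 5.12 CPM in Vehicle skin (SD, n = 9 each; adjusted p = 0.0204), and Nr1h4, a bile acid receptor at under 1 CPM, fell by 1.27 (adjusted p = 0.0237). In TDM versus Blank, Rara and Vdr, the vitamin D receptor, rose by 0.61 and 0.54 (adjusted p = 0.00036 and 0.0107), and no gene of the 13 fell, beside 4.63% of all genes lower. In Vehicle versus Blank none of the 13 passed, where 0.894% of all genes were higher and 1.86% lower.

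Corepressor and deacetylase genes, some of them partners of Ncor1, were read from the same fits. Of 17 corepressor and deacetylase genes, 3 rose and none fell in TDM versus Vehicle, with a median log2 fold change of 0.07, beside 12.0% of all genes higher and 11.7% lower. Hdac1 rose by 0.50 (edgeR's quasi-likelihood test, adjusted p = 0.00168) and Tbl1x, a subunit of the Ncor1 complex, by 0.27 (adjusted p = 0.00798), and the third was the demethylase Kdm1a. Hdac3, the deacetylase of the Ncor1 complex, did not pass, with a log2 fold change of -0.08 (95% interval -0.23 to 0.07), nor did Hr, a corepressor of hair follicle cells that binds thyroid hormone receptors, with 0.05 (-0.21 to 0.31). In TDM versus Blank, Hdac1 rose by 0.53 and Hdac2 by 0.38 (edgeR, adjusted p = 0.000491 and 0.00619), with Kdm1a the third called gene. In Vehicle versus Blank none of the 17 passed. Over all genes, 11.6% were higher and 4.63% lower in TDM versus Blank, and 2.76% were called in Vehicle versus Blank.

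None of 17 coactivator genes was called in TDM versus Vehicle by edgeR, beside 23.7% of all genes tested. DESeq2 called 2 of the 17 as lower there, beside 2517 of all 17232 genes. Ncoa2 and Ncoa3, the relatives of Ncoa1, had log2 fold changes of 0.13 (95% interval -0.01 to 0.27) and -0.03 (-0.19 to 0.14). The acetyltransferase genes Crebbp and Ep300 had -0.06 (-0.19 to 0.08) and 0.06 (-0.10 to 0.21), and Ppargc1a, a metabolic coactivator, -0.53 (-1.12 to 0.06). In TDM versus Blank 4 of the 17 rose and 1 fell, beside 11.6% of all genes higher and 4.63% lower. Those that rose were led by Pprc1 (0.51, edgeR, adjusted p = 0.0023) and the acetyltransferase Kat2a (0.35, adjusted p = 0.00797). Ppargc1b fell by 0.41 (edgeR, adjusted p = 0.0482, called in 11 of 27 fits without 1 library).

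Of 31 Mediator genes other than Med1, 1 rose and none fell in each comparison. Over all genes, 12.0% were higher and 11.7% lower in TDM versus Vehicle. The shares were 0.894% and 1.86% in Vehicle versus Blank, and 11.6% and 4.63% in TDM versus Blank. In TDM versus Vehicle the called Mediator gene was Med15, at 0.22 on the log2 scale (edgeR's quasi-likelihood test, adjusted p = 0.00931). In Vehicle versus Blank it was Med24, another subunit, at 0.30 (adjusted p = 0.0487, called in 7 of 27 fits without 1 library and not without Vehicle replicates 7 and 8). In TDM versus Blank it was again Med24, at 0.34 (adjusted p = 0.00494). Med12, of the kinase module, had a log2 fold change of -0.01 in TDM versus Vehicle (95% interval -0.21 to 0.20).

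SWI/SNF chromatin remodelling genes held the most calls of the coregulator lists. Of 12 genes, 5 rose and 1 fell in TDM versus Vehicle (median log2 fold change 0.21, against 0.01 over all genes). Of all genes, 12.0% were higher and 11.7% lower there. In TDM versus Blank 8 of the 12 rose and none fell (median 0.34, against -0.02 over all genes). Of all genes, 11.6% were higher and 4.63% lower in that comparison. None of the 12 passed in Vehicle versus Blank, beside 2.76% of all genes. The count of 5 against Vehicle was not stable: it was 1 to 8 with each library left out, and 3 or fewer without TDM replicate 1, 3, 5 or 7, Vehicle replicate 1, 2, 3, 4, 5, 6 or 9, or Blank replicate 3. It was 8 without Vehicle replicate 7. Of the 5, Actl6a was called in 14, Smarca4 in 16 and Smarce1 in 18 of 27 such fits. It was 2 without the filter on low counts or with the pair of groups fitted alone. Smarcc1, a core subunit, had 82.9, 98.2 and 115.9 CPM in TDM and 51.9, 58.4 and 96.0 CPM in Vehicle libraries before TMM scaling as lowest, median and highest level. It rose by 0.55 against Vehicle and 0.66 against Blank skin (edgeR's quasi-likelihood test, adjusted p = 0.00337 and 0.000497). Smarcc2 rose by 0.20 against Vehicle skin (adjusted p = 0.0123) and Smarcd1 by 0.46 against Blank skin (adjusted p = 0.000999). Smarcd3, a subunit found in muscle, fell by 0.71 against Vehicle skin (adjusted p = 0.00678).

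Markers of dividing cells and of muscle also differed between TDM and Vehicle skin. Of 8 proliferation markers, 7 were called higher in TDM versus Vehicle and 8 in TDM versus Blank skin, beside 12.0% and 11.6% of all genes. With the skeletal muscle score as a covariate, TDM versus Vehicle had 0 calls among the receptor, corepressor, Mediator and SWI/SNF lists. Over all 17232 genes that fit called 242, beside 4090 without the score, so calls were rare in any list. With the score, Rxrg and Smarcd3 had log2 fold changes of -0.06 and -0.03. Among other genes that lost the call, Smarcc1 had 0.48 with it and 0.55 without, Rara 0.36 and 0.50, and Ppard 0.19 and 0.20. Med15 and Hdac1 had 0.09 and 0.36 with the score, each below its value without it given above. In the same fit of TDM versus Blank, the corepressor list held 3 higher genes and the SWI/SNF list held 7 higher and 1 lower. Over all 17232 genes it gave 2111 higher and 1161 lower in that comparison. The part of dividing cells in these values was not tested.

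Genes that bring ligand to the receptors included genes that passed the test in both comparisons of TDM. Of 8 tested genes of ligand supply and binding, 3 rose and none fell in each of these, beside 12.0% of all genes higher against Vehicle and 11.6% against Blank skin. Dio2, the deiodinase that makes the active hormone, had 4.10, 6.63 and 10.1 CPM in TDM, 1.33, 2.27 and 5.05 CPM in Vehicle and 1.28, 2.14 and 3.31 CPM in Blank libraries before TMM scaling as lowest, median and highest level. It rose by 1.53 against Vehicle and 1.61 against Blank skin (edgeR's quasi-likelihood test, adjusted p = 8.73e-05 and 4.5e-05), and by 1.37 against Vehicle with the muscle score as a covariate (adjusted p = 0.00444). The amino acid transporter Slc7a5 was also called in both, but not against Vehicle with the muscle score (0.69, edgeR, adjusted p = 0.224). In Vehicle versus Blank none of the 8 passed, beside 2.76% of all genes. Dio1, Dio3, Slco1a4 and Slco1c1 were under the filter on low counts.

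Of 15 tested thyroid hormone target genes from other tissues, 2 rose and 1 fell in each comparison of TDM. None passed in Vehicle versus Blank, beside 2.76% of all genes. Over all genes 12.0% were higher and 11.7% lower against Vehicle, and 11.6% and 4.63% against Blank skin, so these counts were near or below the background. Thrsp, a lipogenic target known from liver, had 179, 296 and 415 CPM in TDM and 6.67, 64.0 and 352 CPM in Vehicle libraries before TMM scaling as lowest, median and highest level. It rose by 1.56 against Vehicle and 1.90 against Blank skin (edgeR's quasi-likelihood test, adjusted p = 0.0109 and 0.00284). Cpt1a, of fatty acid oxidation, rose by 0.55 against Vehicle skin (adjusted p = 0.00209), and the muscle calcium pump Atp2a1, which is also among the muscle markers, fell by 0.73 (adjusted p = 0.019). With the muscle score as a covariate none of the 15 was called against Vehicle, beside 242 of all 17232 genes. Thrsp then had 1.11 (edgeR, adjusted p = 0.2) and Cpt1a 0.52 (adjusted p = 0.0581). Klf9, a direct target in many cells, had a log2 fold change of 0.00 against Vehicle skin (95% interval -0.28 to 0.28), but fell by 0.39 against Blank skin (adjusted p = 0.0473, called in 11 of 27 fits without 1 library). Shh, the hedgehog ligand of the growing follicle, had 6.995, 20.6 and 57.5 CPM in TDM, 0.119, 0.762 and 41.5 CPM in Vehicle and 0.116, 0.869 and 9.89 CPM in Blank libraries before TMM scaling as lowest, median and highest level. It rose by 3.77 against Blank skin (adjusted p = 0.00848) but was not called against Vehicle skin, at 1.89 (95% interval 0.07 to 3.71; adjusted p = 0.119). Against Vehicle it passed without Vehicle replicate 8 (3.30, edgeR, adjusted p = 0.00794). It was 5.69 without replicates 7 and 8 (edgeR, adjusted p = 2.25e-05), a fit added after the data were seen. These libraries held the highest summed proliferation markers of Vehicle skin (611 and 828 CPM) and its highest hair matrix markers (50.9 and 28.9 CPM). The size of that rise therefore depends on the choice of libraries.

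**Figure D5:**
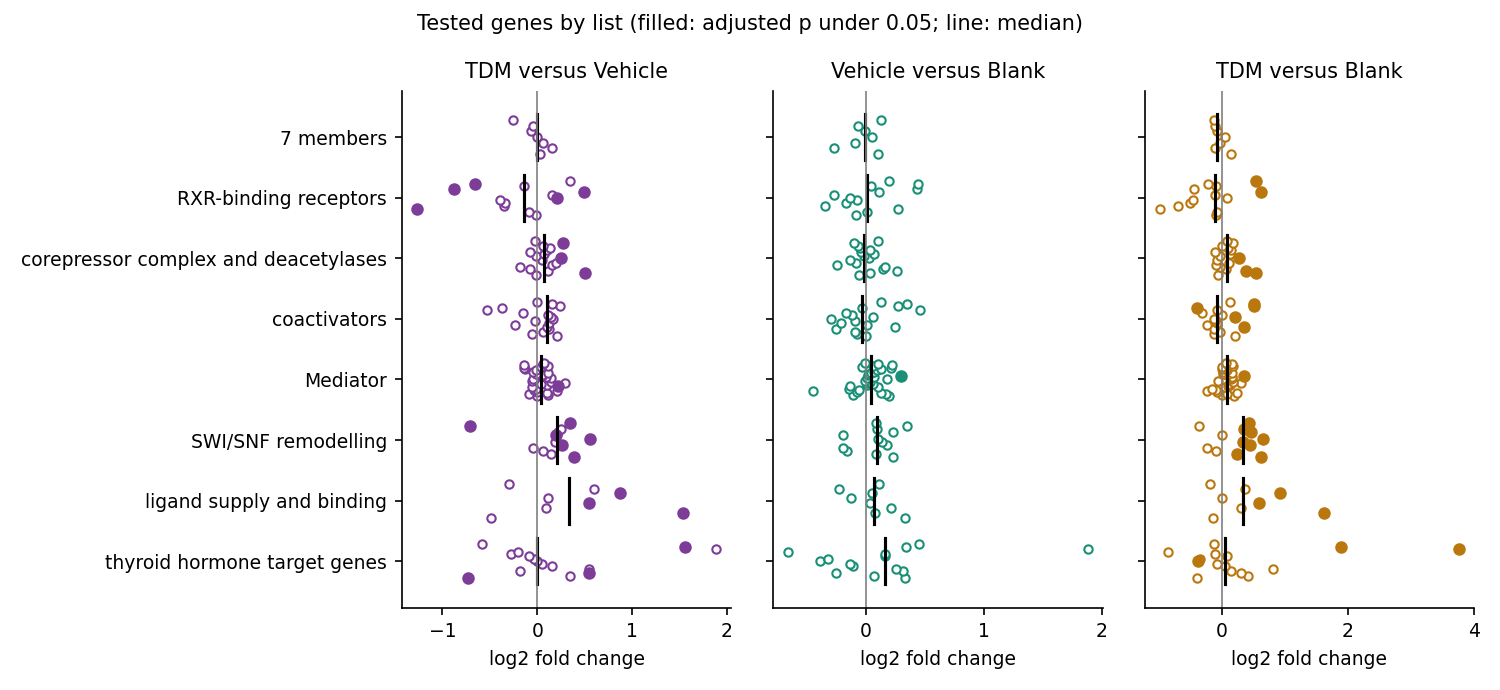
Log2 fold change of each tested gene of the 7 genes and of the 7 lists, 1 panel per comparison, with filled points for an adjusted p under 0.05 and a bar at each median. The row of the 7 genes has no filled point and spans -0.26 to 0.16 in TDM versus Vehicle. Every list row except Mediator holds a filled point beyond 0.5 in absolute size in at least 1 panel.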

How the data were processed

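Read counts per gene and FPKM of 27 libraries were taken from 1 table, deposited by the authors, of 54532 genes. The counts are not normalized, and the authors' FPKM equal counts over gene length and 1 constant per library, between 0.922 and 1.08 times the total of counts. The authors' deposited table further gives log2 fold changes with p-values, and group means of normalized signal that were not used. The submitters' processing notes name Bowtie 0.12.2 and the mm9 build, but 98.33% of 54495 matched genes have GRCm38 coordinates, which are given here. Libraries were made with the TruSeq RNA kit, per the labels' protocols.

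The filter filterByExpr (minimum count 10, minimum total 15) kept 17232 genes and 99.86% of reads. Counts were TMM-scaled and tested with edgeR 4.0.16 (glmQLFit, glmQLFTest, robust) over 27 libraries in R 4.3.3. Calls needed a Benjamini-Hochberg adjusted p under 0.05, and intervals are 95%. The fit was tested on simulated data. Alternatives were DESeq2 1.42.0, limma 3.58.1 voom, other scalings and filters, log2(FPKM + 1) and log2(FPKM + 0.1) with limma, a replicate block, a muscle score covariate and each library left out. The members and gene lists were chosen with earlier results of these data known. Named list genes were a fixed set plus, per list and comparison, up to 2 called genes with the smallest p in each direction, and those named without a value beyond them complete small counts and were chosen after their values were seen. Promoter windows are from RefSeq. No 2 libraries of a group agreed within counting error (108 pairs, smallest chi-square 8.03 per degree of freedom). Some genes of the lists are not reported here by name.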

Additional observations from a re-analysis of the deposited data

Results flagged for a closer look

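Blank replicate 5 stood apart from the other Blank libraries in 2 of the 7 genes. Ncoa1 was at 40.2 CPM there and at 59.8 to 73.0 CPM in the other 8 Blank libraries, a gap of 0.598 of the range of the group. Med1 was at 50.5 CPM there and at 57.5 to 63.7 CPM in the other 8, a gap of 0.530 of the range. The critical value of Dixon's test for 9 samples is 0.493, which chance exceeds about once in 20 in any single group. As 21 groups were tested, such a gap among them would not be rare. Ncoa1 and Med1 had a Pearson correlation of 0.84 within Blank libraries, so their gaps in the same library are not separate events. The same library had the lowest long-transcript index, -0.44. The part of that index in these gaps was not tested.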

How the results depend on the processing

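Of 840 values from 40 alternatives for the 7 genes in 3 comparisons, 803 kept their direction and their side of the threshold, 15 gained a call and 22 turned sign. No member was called in the first place, so no call could be lost. The count of called members, 0 in each comparison, was 1 in TDM versus Vehicle with DESeq2, with limma voom, and without Vehicle replicates 7 and 8 or 3, 7 and 8 (Thrb, -0.34 and -0.41), and 0 to 1 with each library left out. It was 1 in Vehicle versus Blank with the long-transcript index as a covariate and 0 to 1 with each library left out. It was 1 in TDM versus Blank with limma voom and with the index, and 0 to 1 with each library left out. In TDM versus Vehicle, signs turned with the muscle score for Thra (0.027), Rxrb (0.051) and Med1 (-0.006), with voom for Rxra (0.011), without Vehicle replicates 7 and 8 for Rxra (0.034), without 3, 7 and 8 for Ncor1 (-0.005), and with the index for Ncor1 (-0.004) and Med1 (-0.008). With each library left out, Rxra ran from -0.055 to 0.019 and Med1 from -0.007 to 0.056. In Vehicle versus Blank, Rxrb was 0.003 and 0.005 without the 2 and the 3 Vehicle libraries, and -0.042 to 0.014 with each library left out. The cause was not tested. Of 27 most-alike or most-opposite genes, 10 were shared with Spearman ranks and 13 without centring. Replicate numbers did not meet the rule for pairing, a correlation over 0.1 in every pair: same-numbered libraries correlated over 0.1 in 11 of 27 pairs (-0.399 to 0.382), and 3 of 27 libraries matched their own number best, although Nr1d1 was low in numbers 7 to 9 of both Vehicle and Blank. With the replicate block 0 members were called in each comparison. Over all genes, the block called 3946, 598 and 2621 in TDM versus Vehicle, Vehicle versus Blank and TDM versus Blank, beside 4090, 475 and 2793. The muscle score gave 242, 10 and 3272, voom 6917, 226 and 5261, and in Vehicle versus Blank DESeq2 gave 1433, no filter 2, and each library left out 0 to 1289. The fit without the 2 or 3 Vehicle libraries gave 84 and 0 there. At 451 or more reads for every member in every library, counting error was small beside the spread between libraries.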
